A study of Arabidopsis thaliana with 12 samples.

Results

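The genes described here are PORB (AT4G27440), CHLM (AT4G25080), HEMB1 (AT1G69740) and GSA1 (AT5G63570), which encode enzymes of chlorophyll synthesis in Arabidopsis thaliana. They were chosen by their names in the platform's annotation, with earlier results of these data known. The choice was among 9233 genes that a probe with a single listed gene and a value on every array measured. Each of the 4 has 1 probe, of 21500 in all. The study compared 6 transformant lines, AK069096, AK073112, AK073675, AK065297, AK102323 and AK073210, with the wild type Col-0. Each line carries the rice full-length cDNA clone it is named for and was made by a repeated transformation. RNA came from the aerial parts of plants grown at 22 °C under long days (16 h of light, 8 h of dark). Titles and sources name the lines, while every array's description names AK069096. Each of the 12 arrays, 2 per line, compared RNA of 1 line, labelled with Cy3, with RNA of Col-0, labelled with Cy5. The sources used here do not state the promoter that drives the cDNA, how many independent transformants or plants stand behind an array, the age of the plants or what the rice cDNAs encode. No label ties the replicate arrays of a line to separate plants, so p-values measure the spread between arrays, which may be technical.

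Chlorophyll and haem are tetrapyrroles made in the plastid from glutamate. GSA1 encodes a glutamate-1-semialdehyde aminomutase, which makes 5-aminolevulinic acid, the precursor of all plant tetrapyrroles. HEMB1 encodes 5-aminolevulinic acid dehydratase, which joins 2 molecules of that precursor into porphobilinogen. After several further steps the path divides into a haem branch and a magnesium branch that leads to chlorophyll. CHLM encodes the methyltransferase that acts on magnesium protoporphyrin IX, and PORB encodes a light-dependent reductase that turns protochlorophyllide into chlorophyllide. Leaf cells need the steps that these enzymes catalyse to green, and genes of the pathway are known to respond to light together with genes of the photosystems.

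Values are log2 ratios of the 2 channels as deposited. The direction of the ratio between line and Col-0 is not settled, because the labelled dyes, in the scanner program's usual order, point to Col-0 over line and the wording of the titles points to line over Col-0. Values are therefore given on the negative or the positive side of 0, never as higher or lower in a line, and a fold gives the size of the difference only. The log base is not stated either. The values were taken as log10 ratios, so each printed log2 value and fold rests on that base, while the p-values do not. The standard deviation over all probes was between 0.62 and 0.68 on both AK069096 arrays and AK073112 replicate 2, and between 0.40 and 0.57 on the other 9 arrays. The 2 arrays of AK073112 stood apart from each other. They correlated across probes at r = 0.352, against 0.586 to 0.805 within the other lines, whereas AK073112 replicate 2 correlated at 0.816 with AK069096 replicate 2. The tests of the chlorophyll genes line by line and between lines are given with and without the AK073112 arrays. By smaller margins 2 further arrays correlated more with another line than with their own partner. AK069096 replicate 2 had 0.805 with its partner, and AK073675 replicate 2 had 0.586 with its partner and 0.611 with AK065297 replicate 1. No 2 arrays correlated below 0.115.

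The comparison of the lines with Col-0 asks which transcripts the transformants change. All 4 chlorophyll genes lay on the negative side, by 47 of their 48 values. PORB was farthest from 0 on 11 of the 12 arrays, with CHLM farthest on AK073675 replicate 1, and GSA1 was nearest to 0 on all 12. The exception among the 48 values was GSA1 on AK073112 replicate 1. RNA came from whole aerial parts, so a different number of green cells and a different level of RNA per cell cannot be told apart.

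**Figure D1:**
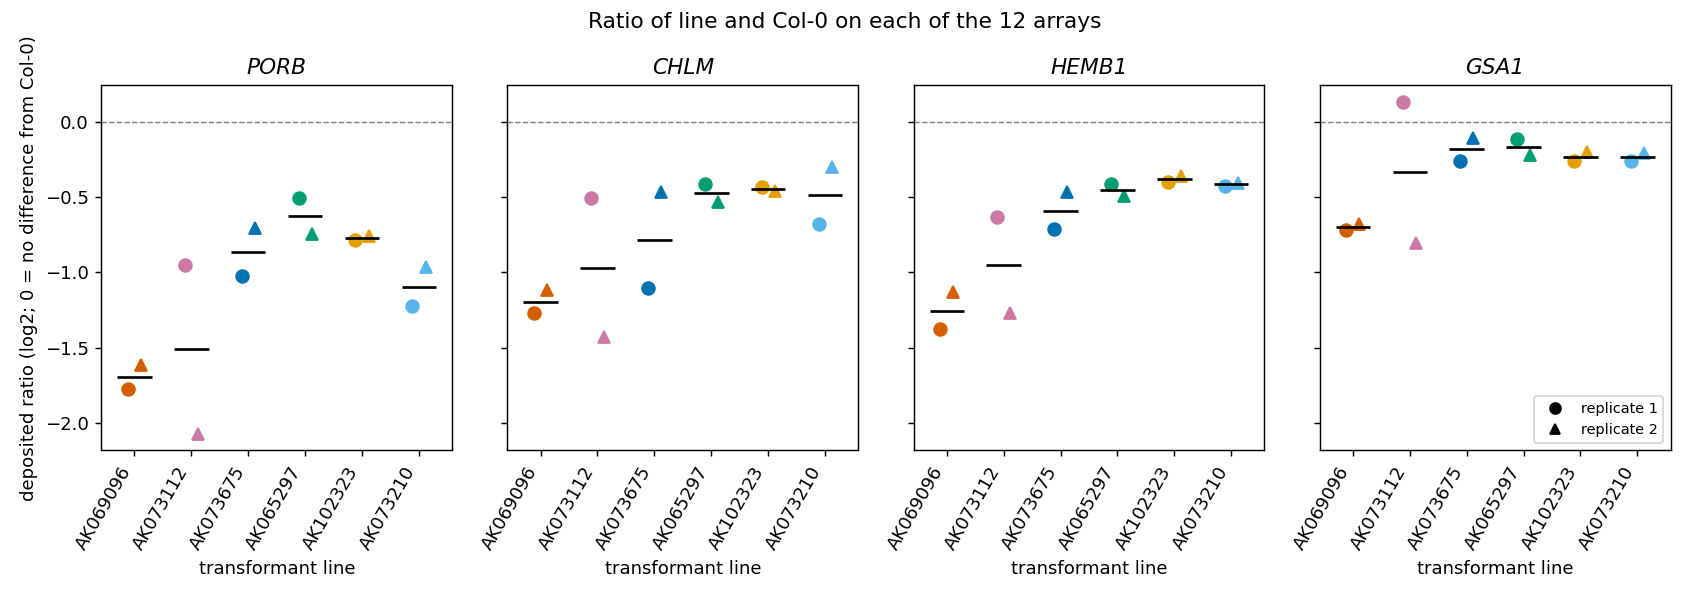
Deposited log2 ratio (y axis) of PORB, CHLM, HEMB1 and GSA1 in the 6 lines (x axis), with circles for replicate 1, triangles for replicate 2, black bars for the mean of the 2 arrays and a dashed line at 0, no difference from Col-0. The AK069096 points and AK073112 replicate 2 are the 3 lowest for each gene, the AK073112 points lie far apart, and 47 of 48 points are below 0.

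GSA1, of the first of these steps, had ratios of -0.72 and -0.68 in AK069096 and of 0.13 and -0.80 in AK073112 (replicates 1 and 2). In AK073675 it had -0.26 and -0.11, in AK065297 -0.12 and -0.22, in AK102323 -0.26 and -0.20, and in AK073210 -0.26 and -0.21. The AK069096 values and AK073112 replicate 2 lay farthest from 0, and the other 4 lines overlapped one another. Over all 6 lines the mean was -0.31 ± 0.07 (SE, n = 12 arrays), a size of 1.24-fold, with an adjusted p of 0.00961 by limma.

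HEMB1, of the next step, had ratios of -1.38 and -1.13 in AK069096 and of -0.63 and -1.27 in AK073112. It had -0.71 and -0.47 in AK073675, -0.41 and -0.49 in AK065297, -0.40 and -0.36 in AK102323 and -0.43 and -0.41 in AK073210. Both AK069096 values lay beyond those of the 4 lines other than AK073112. Over all 6 lines HEMB1 averaged -0.67 ± 0.06 (SE, n = 12), a size of 1.60-fold (limma adjusted p = 0.000103).

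CHLM, the first methylation step of the magnesium branch, had -1.27 and -1.12 in AK069096 and -0.51 and -1.43 in AK073112. In AK073675 it stood at -1.11 and -0.47, in AK065297 at -0.42 and -0.53, in AK102323 at -0.44 and -0.46, and in AK073210 at -0.68 and -0.30. AK073675 replicate 1 came close to the AK069096 arrays, unlike the second array of that line. The mean over the 6 lines was -0.73 ± 0.09 (SE, n = 12), a size of 1.65-fold (limma adjusted p = 0.000484).

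PORB, of the light-dependent step, had -1.78 and -1.61 in AK069096, sizes of 3.43-fold and 3.06-fold, and -0.95 and -2.07 in AK073112. It had -1.02 and -0.70 in AK073675, -0.50 and -0.75 in AK065297, -0.79 and -0.76 in AK102323 and -1.22 and -0.97 in AK073210. After AK069096 and AK073112 replicate 2 the values farthest from 0 were those of AK073210 and of AK073675 replicate 1. The mean over the lines was -1.09 ± 0.09 (SE, n = 12), a size of 2.13-fold (limma adjusted p = 9.54e-05). Among all probes tested, 0.768% passed the test at a mean as far on the negative side as that of PORB or farther.

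For all 6 lines together, all 4 genes passed the test on the negative side (limma, two-sided, Benjamini-Hochberg adjustment over the 21494 probes with a value on every array, threshold 0.05). Of all probes, 24.5% did so, so a pass in this comparison is common. The median of the 4 genes was -0.70, against 0.01 over all probes. PORB, CHLM and HEMB1 had all 12 arrays on the negative side, as had 7.41% of all probes. Each array was set against Col-0 in the same dye orientation, so the test leaves out the spread of Col-0, and an effect of the dyes or of the Col-0 RNA cannot be told apart from one of the lines. The SE and p-value of each mean over the 6 lines rest on the spread between arrays within a line. They leave out the spread between lines, whose means ran from -1.70 to -0.63 for PORB, and n = 12 counts arrays, not lines. The 4 calls held without each array in turn and without both AK073112 arrays (26.6% of all probes then passed on the negative side).

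Line by line, 8 of 24 tests of a gene against Col-0 passed, all on the negative side. In AK069096 all 4 genes passed (15.3% of all probes did on that side). PORB averaged -1.70 ± 0.12 (SD, n = 2 arrays; limma adjusted p = 0.00229), HEMB1 -1.26 ± 0.17 (limma adjusted p = 0.00136), CHLM -1.20 ± 0.11 (limma adjusted p = 0.00692) and GSA1 -0.70 ± 0.03 (limma adjusted p = 0.0223). The calls of CHLM and GSA1 were lost when AK069096 replicate 1 was left out (limma adjusted p = 0.0897 and 0.162) and when replicate 2 was (0.0591 and 0.136), with values that moved little, while those of PORB and HEMB1 held without any 1 array.

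In AK073112, 3 of the 4 genes passed (10% of all probes on the negative side). PORB averaged -1.51 ± 0.79 (SD, n = 2 arrays; limma adjusted p = 0.00442), CHLM -0.97 ± 0.65 (limma adjusted p = 0.0204) and HEMB1 -0.95 ± 0.45 (limma adjusted p = 0.00437), and GSA1 stood at -0.33 ± 0.66 (limma adjusted p = 0.235). These means join unlike arrays, and each array alone gives the value already listed for it. Without replicate 2 the CHLM call was lost (limma adjusted p = 0.15) and the GSA1 value lay on the positive side at 0.13. Without replicate 1 GSA1 stood at -0.80 and passed (limma adjusted p = 0.000854). When arrays were weighted by their agreement, all 3 calls of the line were lost (limma adjusted p = 0.111 for PORB, 0.142 for HEMB1 and 0.308 for CHLM). Both arrays of a line took the same weight (0.201 in AK073112), so this setting widened the spread of the line and could not set its 2 arrays apart.

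In AK073210 only PORB passed, at -1.09 ± 0.18 (SD, n = 2 arrays; limma adjusted p = 0.0258; 4.53% of all probes on the negative side). That call was lost without replicate 1 (limma adjusted p = 0.192) or replicate 2 (0.119). In AK073675 (3% of all probes on the negative side), AK065297 (3.31%) and AK102323 (2.06%) none of the 4 genes passed by limma. PORB averaged -0.86 ± 0.23 in AK073675, -0.63 ± 0.17 in AK065297 and -0.77 ± 0.02 in AK102323, with 95% intervals of -1.39 to -0.34, -1.15 to -0.10 and -1.30 to -0.25. GSA1 averaged -0.18, -0.17 and -0.23 in these lines, and each of its intervals included 0.

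These calls depend on the AK073112 arrays, whose disagreement enters the spread that all lines share. Without both of them 15 of 20 tests against Col-0 passed, again all on the negative side. PORB and HEMB1 then passed in each of the 5 remaining lines, CHLM in AK069096 and AK073675, and GSA1 in AK069096, AK102323 and AK073210. The shares of all probes that passed on the negative side were larger too, at 20.6% in AK069096, 9.42% in AK073675, 9.33% in AK065297, 7.59% in AK102323 and 11.6% in AK073210. Without AK073112 replicate 1 alone 19 of 24 tests passed, and without replicate 2 alone 17 of 24. The share over all probes, lines together and on either side, was 24.9% and 23.5% in these fits and 12.9% with all 12 arrays.

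The lines were then compared with each other, where effects of Col-0 or of the dyes common to all arrays cancel. AK069096 had the mean farthest from 0 for all 4 genes, and AK073112 was next. For PORB they were followed by AK073210, AK073675, AK102323 and AK065297. For CHLM and HEMB1 AK073675 followed them, and the line nearest to 0 was AK102323. For GSA1 the 4 lines behind AK069096 and AK073112 lay between -0.23 and -0.17.

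With all 12 arrays, no gene passed the limma F test for any difference among the 6 lines (3.36% of all probes passed). The adjusted p was 0.119 for HEMB1, 0.234 for PORB, 0.416 for CHLM and 0.571 for GSA1, and only HEMB1 had an unadjusted p under 0.05 (0.0129), as had 22.6% of all probes. None of the 60 tests between 2 lines (4 genes in 15 pairs of lines) passed by limma. Of the tests of all probes in the 15 pairs, 1.36% passed. In tests of each line against the mean of its 5 counterparts none of 24 passed by limma (0.912% of such tests of all probes passed). No neighbouring lines in these orders differed beyond their spread.

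Of the differences from the other lines, that of AK069096 was the widest for each gene. HEMB1 had a mean of -1.26 in AK069096 and of -0.56 over the other 5 lines, a difference of -0.70 ± 0.16 (SE, 95% interval -1.06 to -0.34, limma adjusted p = 0.0714). PORB had -1.70 in AK069096 and -0.97 over the other lines, a difference of -0.72 ± 0.25 (SE, interval -1.30 to -0.15, limma adjusted p = 0.147). CHLM had -1.20 in AK069096 and -0.63 over the other lines, a difference of -0.56 (interval -1.12 to -0.0017, limma adjusted p = 0.208). GSA1 had -0.70 in AK069096 and -0.23 over the other lines, a difference of -0.47 (interval -0.93 to -0.01, limma adjusted p = 0.2). Between AK069096 and AK073112 all 4 intervals included 0, from -0.18 (-0.93 to 0.56) for PORB to -0.37 (-0.96 to 0.23) for GSA1. All 4 of these differences turned to the positive side without AK073112 replicate 1. Without AK073112 replicate 2 they widened to -0.75 for PORB, -0.69 for CHLM, -0.62 for HEMB1 and -0.84 for GSA1.

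**Figure D2:**
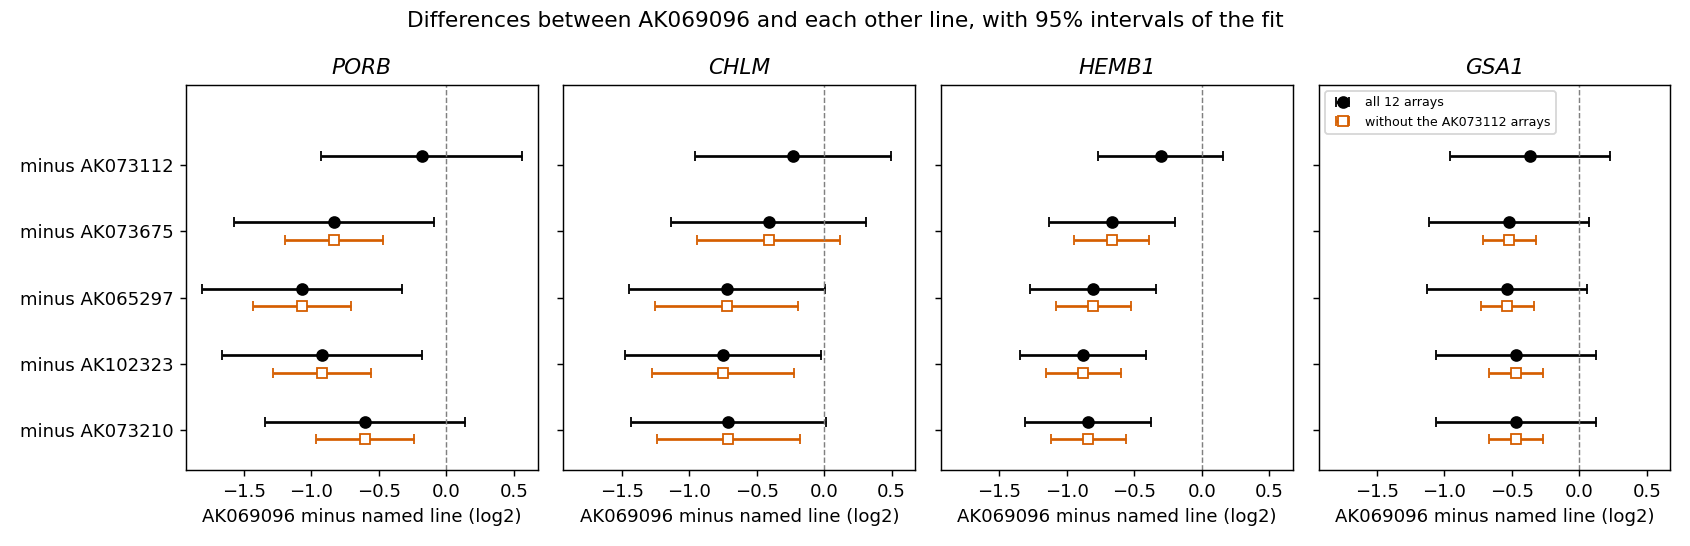
Difference in log2 ratio (x axis) between AK069096 and each other line (rows), AK069096 minus the named line, for the 4 genes, with 95% intervals of the fit on all 12 arrays (filled circles) and, for the 4 lines it holds, of the fit without the AK073112 arrays (open squares). Every difference is below 0, and the open-square intervals are narrower, with all 12 of PORB, HEMB1 and GSA1 below 0.

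Without both AK073112 arrays the differences between the remaining lines are the same by construction and the shared spread was smaller. The F test for any difference among the 5 lines then passed for PORB, HEMB1 and GSA1 (limma adjusted p = 0.0242, 0.0173 and 0.0259; 15.3% of all probes passed) and not for CHLM (0.144). In that fit 12 of 40 tests between 2 lines passed, all of them between AK069096 and another line and all on the negative side, for PORB, HEMB1 and GSA1 against AK073675, AK065297, AK102323 and AK073210. HEMB1 differed by -0.88 ± 0.12 between AK069096 and AK102323 (SE, limma adjusted p = 0.00619). PORB differed by -1.07 ± 0.15 between AK069096 and AK065297 (SE, limma adjusted p = 0.00769), and GSA1 by -0.53 ± 0.08 between the same lines (SE, limma adjusted p = 0.0103). Of all probes, 7.42% passed on the negative side between AK069096 and AK073675, 7.1% against AK065297, 9.01% against AK102323 and 10.5% against AK073210. CHLM, whose AK073675 arrays had an SD of 0.45, had limma adjusted p-values of 0.0602 to 0.256 in its pairs with AK069096. Against the mean of the other 4 lines, AK069096 passed for all 4 genes (12.2% of all probes on the negative side). The differences were -0.86 for PORB, -0.80 for HEMB1, -0.65 for CHLM and -0.50 for GSA1 (limma adjusted p = 0.0043, 0.0024, 0.0377 and 0.00357). Here the mean of the other lines no longer held AK073112, whose replicate 2 was the array most like those of AK069096. The differences are therefore wider in part by that choice. With all 12 arrays they were -0.72, -0.70, -0.56 and -0.47, and none passed. Among the 4 lines other than AK069096 none of 24 tests passed by limma (0.376% of such tests of all probes did). The lowest adjusted p was 0.193, for PORB between AK065297 (-0.63) and AK073210 (-1.09), a difference of 0.47 with an interval of 0.11 to 0.83.

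The arrays on which the 4 genes lay farthest from 0 were also those with the widest spread over all probes. The ranks within each array show the genes apart from that spread. Counted from the most negative probe of an array, the percentile of PORB lay between 0.879 and 8.43, with a median of 2.79. CHLM lay between 1.98 and 18.5, HEMB1 between 2.6 and 13.1, and GSA1 between 8.96 and 64.9, its highest being on AK073112 replicate 1. On the AK069096 arrays the percentiles were 1.27 and 1.34 for PORB, 3.26 and 3.81 for CHLM, 2.6 and 3.71 for HEMB1 and 10.5 and 9.97 for GSA1. On the 8 arrays of the lines other than AK069096 and AK073112, PORB lay between 1.65 and 8.43, HEMB1 between 5.38 and 13.1 and GSA1 between 16.9 and 31.4, none of which overlapped with AK069096. CHLM lay between 1.98 and 18.5 there and overlapped, with AK073675 replicate 1 farther to the negative side than both AK069096 arrays. How many of all probes keep AK069096 apart from these 8 arrays was not counted, so the missing overlap cannot be called particular to these genes. Under quantile normalization, which gives every array the same spread, 16 of 24 tests against Col-0 passed, against 8 as deposited, and still none between lines. The share of all such tests of all probes past the threshold against Col-0, on either side, was 15.5% with quantile normalization and 12.9% as deposited. Between 2 lines that share was 0.889% with quantile normalization and 1.36% as deposited, so a count of none is near it. How far the spread of an array enters the difference of AK069096 was not tested otherwise.

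**Figure D3:**
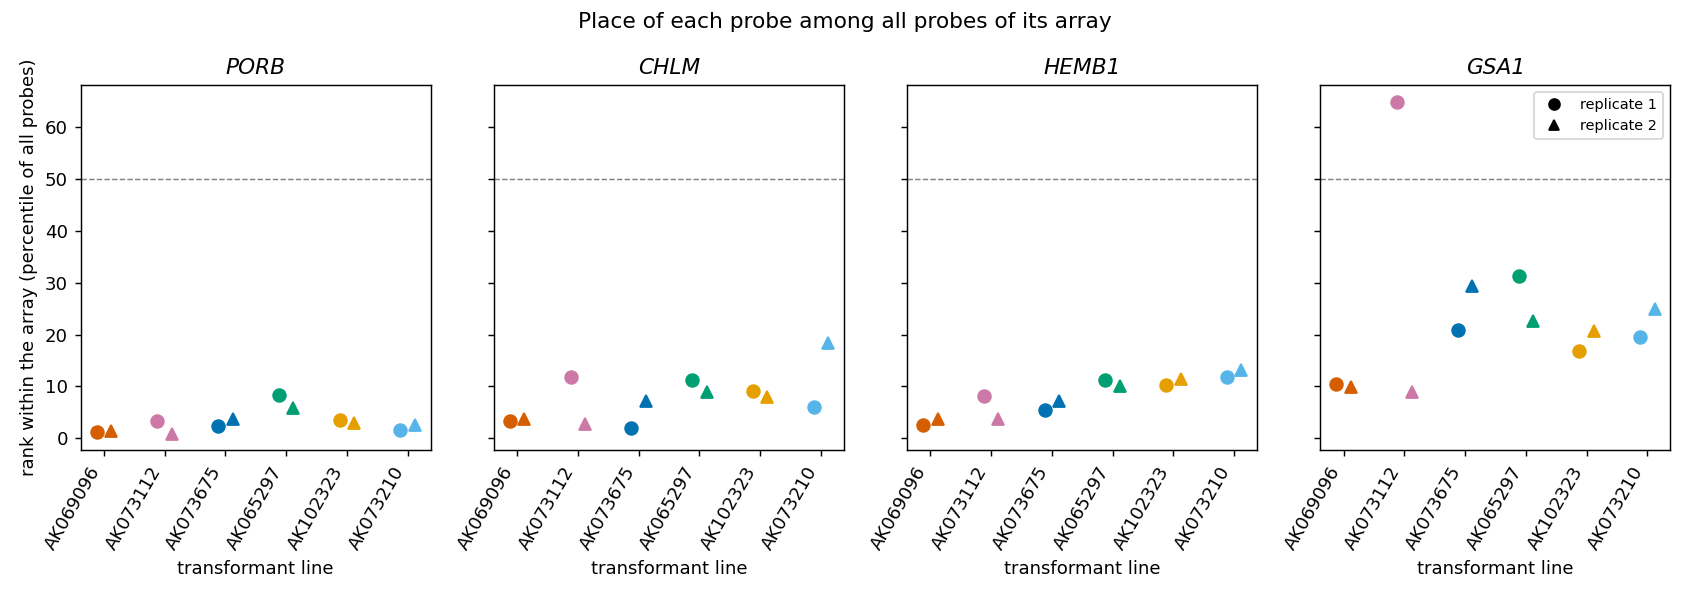
Percentile of PORB, CHLM, HEMB1 and GSA1 among all probes of the same array (y axis, 0 the most negative ratio) in the 6 lines (x axis), with circles for replicate 1, triangles for replicate 2 and a dashed line at the middle of the array. PORB stays under 8.5 on every array, and GSA1 is spread most widely, with AK073112 replicate 1 above 60.

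Further genes of tetrapyrrole and chlorophyll synthesis came from a list of 29 beside the 4, of which the array's named probes measured 6. For all 6 lines against Col-0, 5 of the 6 passed on the negative side and 1 on the positive side, with a median of -0.42. Of all 21494 probes, 5263 passed on the negative side and 5681 on the positive side. HEME1 and HEME2, which encode uroporphyrinogen decarboxylases of the path shared by haem and chlorophyll, averaged -0.90 ± 0.08 (SE, n = 12 arrays, limma adjusted p = 0.000124) and -0.54 ± 0.12 (limma adjusted p = 0.00638). CHLI2, a subunit gene of the magnesium chelatase that opens the chlorophyll branch, stood at -0.73 ± 0.13 (limma adjusted p = 0.00209). CHLP (AT1G74470), the geranylgeranyl reductase gene that supplies the phytol tail, stood at -0.31 ± 0.05 (limma adjusted p = 0.00193).

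HEMA2 and HEMA3 encode glutamyl-tRNA reductases, of the step before GSA1, and lay on opposite sides. HEMA2 averaged -0.27 ± 0.04 (SE, n = 12 arrays, limma adjusted p = 0.00121). HEMA3 averaged 0.73 ± 0.26 (limma adjusted p = 0.0461), was on the positive side on 11 of 12 arrays, and ranged from -0.87 on AK073210 replicate 2 to 2.08 on AK073112 replicate 1. Its call was lost in 11 of 19 alternatives, 9 of which left out a single array, with limma adjusted p-values up to 0.114, and in no single line did it pass.

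In AK069096 the same 5 genes passed against Col-0, as did 15.3% of all probes on the negative side. HEME1 stood at -1.66, CHLI2 at -1.48, HEME2 at -1.24, HEMA2 at -0.65 and CHLP at -0.57. In AK073112 HEME1 (-0.997 and -1.89 on its arrays), CHLP (-0.54 and -0.81) and HEMA2 (-0.41 and -0.78) passed, beside 10% of all probes on the negative side. In the other 4 lines none of the 6 passed with all 12 arrays, beside 2.06% to 4.53% of all probes on that side. Without both AK073112 arrays 20.6% of all probes passed on the negative side in AK069096 and 7.59% to 11.6% in the other 4 lines. In that fit the 5 genes still passed in AK069096, and 8 of the 24 tests in the other 4 lines passed too, all on the negative side. These were CHLI2 in all 4 lines (limma adjusted p = 0.00165 to 0.0112), HEME1 in AK073675, AK102323 and AK073210 (limma adjusted p = 0.0157, 0.0357 and 0.0131) and HEME2 in AK073675 (limma adjusted p = 0.0403). CHLP lay closest to 0 in AK065297, with 0.01 and -0.01 on its arrays, where PORB had -0.50 and -0.75. Between lines 1 of 90 tests of these 6 genes passed with all 12 arrays, HEMA2 between AK069096 (-0.65) and AK073210 (-0.01), at -0.64 ± 0.14 (SE, limma adjusted p = 0.0467, 2.46% of all probes on the negative side). That call was lost without either AK069096 or AK073210 array (limma adjusted p = 0.0821 to 0.184) and without each array of AK073675, AK065297 and AK102323 (0.0707 to 0.0871). It held, at a limma adjusted p of 0.00858, without either or both of the AK073112 arrays. Without both, 16 of 60 tests between lines passed, beside 7.27% of such tests of all probes on either side. All 16 were between AK069096 and another line, for HEMA2, HEME1, HEME2 and CHLI2 against each of the 4 lines. The lowest limma adjusted p was 0.00131, for CHLI2 between AK069096 (-1.48) and AK073675 (-0.36).

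**Figure D4:**
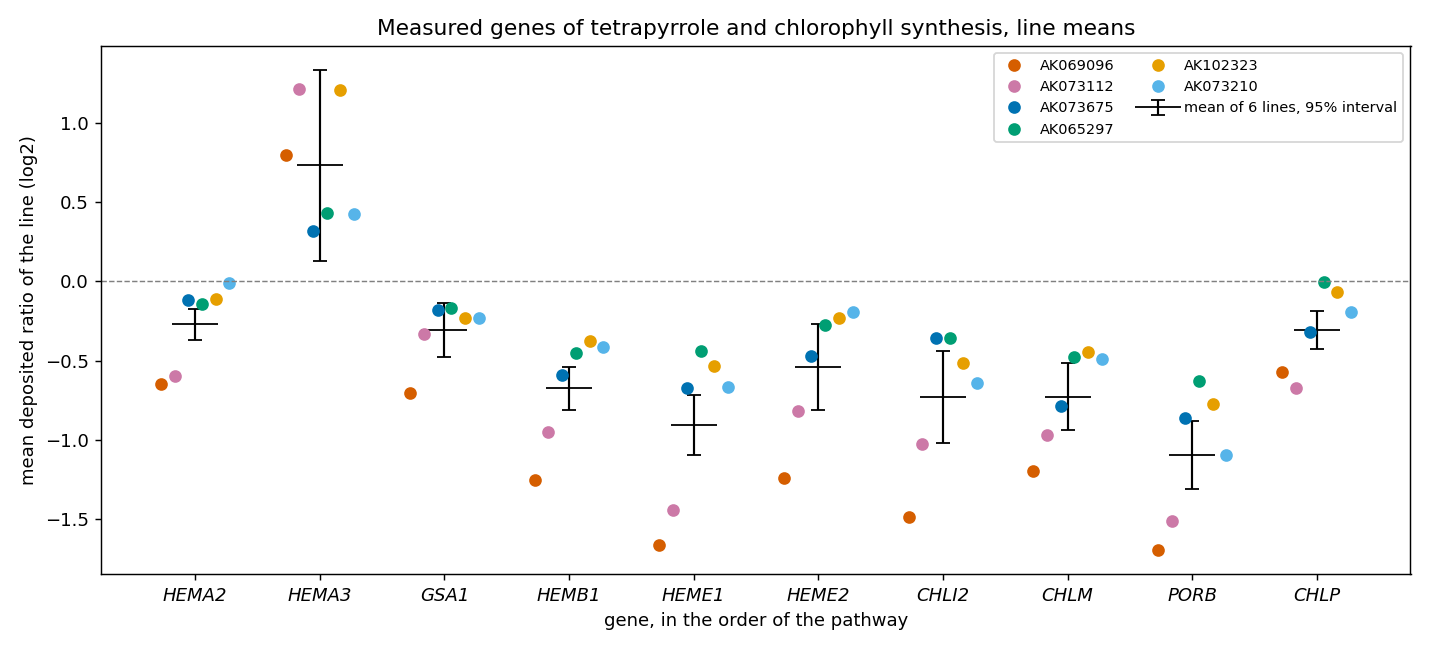
Mean log2 ratio of each line (coloured points, y axis) for the 10 measured genes of tetrapyrrole and chlorophyll synthesis, placed in the order of the pathway (x axis), with the mean of the 6 lines and its 95% interval from the fit (black). All points but those of HEMA3 lie at or below 0. AK069096 lies lowest for each gene except HEMA3, where AK073675 does, and CHLP, where AK073112 does.

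By the similarity of their pattern over the 12 arrays, the named genes nearest to PORB were CP5 (Pearson r = 0.973), the antenna gene LHCB4.2 (0.971) and HEME1 (0.964), among 1314 named probes. Nearest to CHLM were SAMTL, of an S-adenosylmethionine transporter-like protein (0.978), HEME2 (0.955) and the kinesin gene KICP-02 (0.941). Nearest to HEMB1 were the transcription factor gene BZIP61 (0.964), HEME1 (0.961) and the alanine aminotransferase gene AlaAT1 (0.958). Nearest to GSA1 were the carboxypeptidase-like gene scpl26 (0.965), CHLI2 (0.961) and the glutathione transferase gene GSTU18 (0.956). The most opposite patterns were those of DPL1, a sphingosine phosphate lyase gene (-0.959 with PORB), the acireductone dioxygenase gene ATARD2 (-0.958 with CHLM), the RNA polymerase subunit gene NRPB7 (-0.968 with HEMB1) and the protease inhibitor gene SERPIN1 (-0.985 with GSA1). These correlations are descriptions. The 12 arrays share Col-0, come in pairs from 6 lines and differ in spread, and the AK069096 arrays and AK073112 replicate 2 hold the most negative values of the 4 genes.

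The 4 genes correlated with each other at r = 0.842 (CHLM and GSA1) to 0.919 (CHLM and HEMB1) over the 12 arrays. On the 8 arrays of the lines other than AK069096 and AK073112 the values were 0.888 for CHLM and HEMB1, 0.734 for PORB and GSA1, 0.491 for PORB and CHLM, 0.474 for CHLM and GSA1, 0.29 for PORB and HEMB1 and 0.263 for HEMB1 and GSA1. All 6 values were lower on these 8 arrays than over the 12.

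Of 40 listed genes of the photosystems and their antennae 8 were measured. For all 6 lines 7 passed on the negative side (24.5% of all probes did) and 1 on the positive side, with a median of -0.55. The photosystem II assembly gene PSB27 averaged -0.84, the photosystem I gene PSAE-1 -0.79 and LHCB4.2 -0.59, and LHCB4.3, a gene of the same antenna family, 0.56. Their median was -0.85 and -0.96 on the AK069096 arrays and -0.02 and -1.09 on those of AK073112, and lay between -0.75 and -0.25 on the other 8. Of the lists for other branches and for control of the pathway 1 gene each was measured. SIRB, whose enzyme completes sirohaem, stood at 0.12 (limma adjusted p = 0.0161), NOL, of a chlorophyll b reductase that starts chlorophyll breakdown, at 0.10 (limma adjusted p = 0.0127), and HYH, a light signalling regulator, at 1.19 (limma adjusted p = 3.62e-05, positive on 12 of 12 arrays). Of 14 listed anthocyanin genes 5 were measured by 6 probes, 5 of which passed on the positive side, as did 5681 of all 21494 probes. The probe that did not pass, at -0.09 (limma adjusted p = 0.062), is of AT4G14090, whose other probe stood at 1.68. Senescence genes went both ways, with SAG29 at 1.19, WRKY6 at 0.38 and WRKY53 at -0.58, all past the test, beside 50.9% of all probes on either side.

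Markers of other organs were also measured. The median of 5 pollen and anther probes was 1.27 and 1.31 on the AK073210 arrays and between -0.42 and 0.54 on the other 10, and that of 3 root genes lay between -0.33 and 0.49, its highest value being on AK073112 replicate 1. For all 6 lines, 4 of the 5 pollen and anther probes passed, of which 3 were positive and 1 was negative, and 1 of the 3 root genes did, EXPA18, at 0.48, beside 50.9% of all probes on either side. Their part in the ratios of the 4 chlorophyll genes was not tested.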

How the data were processed

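The deposited table holds 1 log ratio per probe and array, made by the authors with Agilent Feature Extraction 7.1.1, per the submitters' processing notes. The base was taken as log10 from the form of the deposited values, which were put on the log2 scale here. The sources used here do not hold the background method, dye normalization or channel intensities, so no filter on dim probes was possible, and the number of arrays limits the precision. Probe genes came from the platform's gene list, matched by gene ID to the TAIR10.1 gene table (9317 of 9335 probes with 1 gene matched, 40 had several genes and 12125 none listed). Probe sequences were not used here, so binding of a probe to a related gene, such as another POR or GSA gene, cannot be told apart, and the promoter motifs planned were not searched.

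A mean per line was fitted with limma 3.58.1 in R 4.3.3 on 21494 probes, with 1 spread per probe for all lines (6 residual and 1.88 prior degrees of freedom). Contrasts were each line and all lines against Col-0, each line against the other 5, 15 pairs and an F test. The fit was tested on simulated data. Named genes are the 4, all measured tetrapyrrole genes, up to 4 of each other list by size, and for each of the 4 the 3 nearest patterns and the most opposite one. Alternatives were quantile normalization, a replicate block, exact zeros as missing, array weights, a robust spread, probes averaged per locus and arrays left out. The genes, lists and alternatives were chosen with earlier results of these data known.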

Additional observations from a re-analysis of the deposited data

Results flagged for a closer look

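HEMA2, a glutamyl-tRNA reductase gene, differed between AK069096 and AK073210 by the test of the difference itself, at -0.64 on the log2 scale (limma adjusted p = 0.0467), with values of -0.59 and -0.71 in AK069096 against -0.13 and 0.12 in AK073210. The adjusted p lay above 0.05 in 14 of the 19 alternatives. With 2 arrays per line, no test for a single outlying array within a line could be made.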

How the results depend on the processing

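The 4 calls for all lines against Col-0 held under all 19 alternatives. Of all probes, 50.9% passed this comparison on either side with all 12 arrays. In the alternatives other than those without a single array the share was 46.7% to 55.6%, so a pass is common there too. The counts of other tetrapyrrole and photosystem genes on the negative side and of anthocyanin probes on the positive side held under those run, while HEMA3 was lost in 11 of 19. The counts below are of the 4 genes, each with the share of all probes' tests past the threshold on either side. Of 24 tests of a line against Col-0, 8 passed (12.9%). With quantile normalization 16 did (15.5%), with array weights 16 (22%), without both AK073112 arrays 15 of 20 (23.6%), and with 1 array left out 6 to 19 (6.82% to 24.9%). Of tests against the other 5 lines 0 passed (0.912%). With array weights 3 did (3.6%), without both AK073112 arrays 4 (5.69%), and with 1 array left out 0 to 7 (0.278% to 8.77%). Of tests between 2 lines 0 passed (1.36%). With array weights 12 did (5.39%), without both AK073112 arrays 12 of 40 (7.27%), and with 1 array left out 0 to 24 (0.386% to 10.8%). By the F test 0 genes passed (3.36%). With array weights 2 did (13.9%), without both AK073112 arrays 3 (15.3%), and with 1 array left out 0 to 3 (0.633% to 26%). Among the comparisons recomputed singly (lines against Col-0, AK069096 and AK073112 against the other lines, and AK069096 against each line), signs turned in comparisons that involve AK073112. With 1 array left out, the difference of AK073112 from the other lines ran from -1.06 to 0.060 for PORB, -0.75 to 0.17 for CHLM and -0.50 to 0.44 for GSA1, and GSA1 in AK073112 against Col-0 from -0.80 to 0.13, the upper ends being without its replicate 2. AK069096 against AK073112 ran from -0.75 to 0.38 for PORB, -0.69 to 0.23 for CHLM, -0.62 to 0.013 for HEMB1 and -0.84 to 0.10 for GSA1, the upper ends being without AK073112 replicate 1. With quantile normalization GSA1 in AK073112 differed from the other lines by 0.075. Replicate numbers did not pair the arrays (correlations of the differences between replicates from -0.07 to 0.17, over 0.1 in 2 of 15 pairs of lines). With the replicate block 8 of 24 calls against Col-0 (11.9% of such tests of all probes) and 0 of 60 between lines (0.875%) were made. The cause was not tested beyond these settings.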
